A study of Mus musculus with 8 samples.

Results

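In unexposed TM3 cells, m6A antibody signal was compared with input RNA peak by peak, and genes were ranked by the ratio of the immunoprecipitate (IP) to the input. The table of m6A peaks held 3331 regions in 2295 genes. Of these, 2982 peaks in 2070 genes had at least 6 RPM (reads scaled to a total that no label or header states) in the input of normal cells, and they are called covered peaks here. The measure was log2((IP + 1)/(input + 1)), in RPM, written log2 IP/input below. A value of 1 means about 2-fold more IP than input on the RPM scale.

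TM3 is an established mouse cell line labelled as Leydig cells, which lie between the seminiferous tubules of the testis and make testosterone. The study sequenced 8 libraries in 4 groups of 2: fragmented poly(A) RNA as RNA-seq, which also served as input, and the m6A IP of the same kind of RNA (MeRIP-seq), each from normal TM3 cells and from TM3 cells exposed to bisphenol A (BPA), a plasticiser that acts on hormone receptors. Its title asks how m6A acts on autophagy through Map1lc3b. The labels give no dose or duration of BPA, and no agent for the normal cells. They do not say whether the replicates were separate cultures.

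N6-methyladenosine (m6A) is an internal mark of messenger RNA. A methyltransferase complex built on METTL3 and METTL14, with WTAP and other partners, writes it, FTO and ALKBH5 remove it, and proteins with a YTH domain and several other RNA-binding proteins bind it and affect splicing, export, translation and decay. In MeRIP-seq an antibody pulls down methylated fragments, so a region with more reads in the IP than in the input is enriched, but the ratio is relative and gives no fraction of methylated molecules.

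Of 9 Leydig cell genes (Star, Cyp11a1, Cyp17a1, Hsd3b1, Hsd3b6, Hsd17b3, Insl3, Lhcgr and Nr5a1) none was among the rows of the RNA-seq count table, so the label could not be checked against them and they are not analysed here. Of 8 Sertoli cell genes, 4 were listed. Wt1 had 1563 and 2307 reads in the normal libraries, Clu 221 and 1, Dhh 135 and 0, and Rhox5 none. The other lists had few listed genes: Stra8 with 0 reads in both libraries of 8 germ cell genes, Cd68 (0 and 59) and Lyz2 (126 and 0) of 7 macrophage genes, and Tek (1 and 97) and Acta2 (80 and 352) of 7 endothelial and smooth muscle genes. The normal RNA-seq libraries held 10455643 and 7517482 reads.

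Each peak had 1 IP value and 1 input value per condition, pooled by the authors over 2 libraries. There is thus no replicate spread on any IP/input ratio, and no test of a single peak was possible. Counts past a fold and counting intervals stand in for one. The RPM steps gave totals of 5402183 IP reads and 1703691 input reads behind the normal columns, so that 1 read was 0.185 RPM in the IP and 0.587 RPM in the input. Intervals below are 95% exact conditional intervals (Clopper-Pearson) from these reads. They cover counting error only, since reads amplified by PCR without molecular identifiers are not independent molecules. In the authors' deposited table the largest false discovery rate for BPA against normal was 0.0147 over all 3331 peaks. The ranking therefore covers peaks that met the authors' test of a difference between conditions, and m6A peaks outside that table are not analysed here.

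The IP and input columns of the table summed to 826089 and 884773 RPM over all its peaks, so the scaling itself places the average ratio near 1, and a centre near 0 says nothing of how far these regions are enriched over other RNA. Peaks were thus ranked against each other. The low tail was longer than the high one. The median log2 IP/input was -0.24, the quartiles were -1.07 and 0.69, and the 5th and 95th percentiles -5.74 and 2.26. Above 0 lay 1286 peaks (43.1%) and below 0 1696 (56.9%), and 1643 (55.1%) were between -1 and 1. At least 1 was reached by 549 peaks (18.4% of all covered peaks) and at most -1 by 790 (26.5%). A value of at least 2 was seen in 197 peaks (6.61%), and of at most -4 in 182 peaks (6.1%) of 169 genes. The range ran from -9.06 to 5.21. The counting interval lay above 1-fold in 1145 peaks, below it in 1546 and held 1 in 291. These are averages over whole cultures, so fewer methylated transcripts per cell and fewer cells that carry them cannot be told apart.

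**Figure D1:**
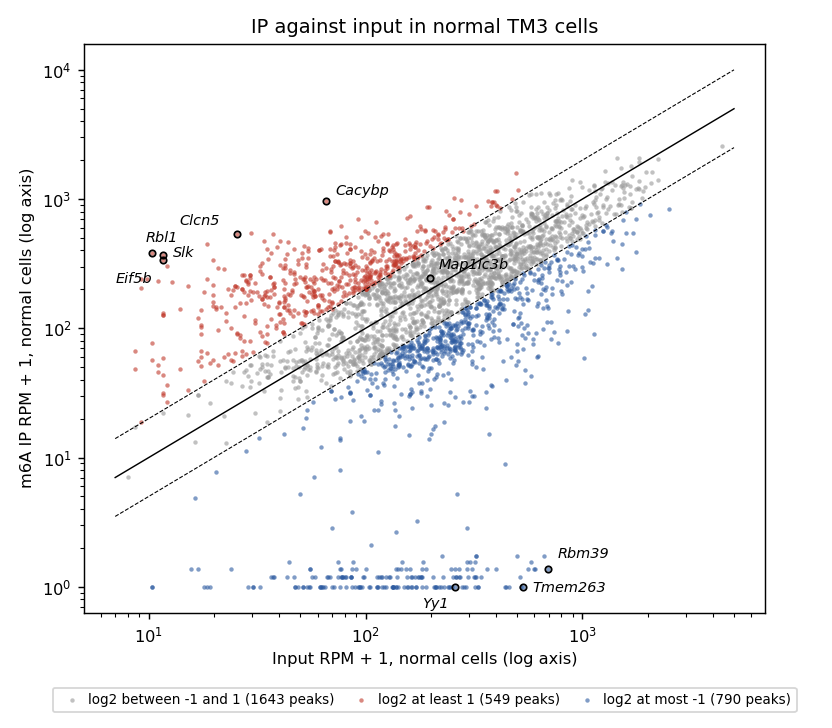
Each point is a covered peak of normal TM3 cells, with input RPM on the x axis and IP RPM on the y axis, both as RPM + 1 on log axes; red points have a log2 IP/input of at least 1, blue points of at most -1, the solid line is parity and the dashed lines are 2-fold. Most of the 2982 points follow the diagonal, while 176 lie below 1 RPM of IP across an input range of 9.39 to 696 RPM.

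The highest ratio belonged to Rbl1, a pocket protein of the retinoblastoma family that restrains cell cycle genes. Its 25 nt peak at chr2:157017514-157017538 (read as GRCm39) had 384 RPM in the IP and 9.39 RPM in the input, from 2073 and 16 reads. Its log2 IP/input was 5.21 and the ratio 40.9-fold (25.1 to 71.6). RNA-seq gave the gene 972 and 687 reads in the 2 normal libraries. Slk, a serine/threonine kinase of the cytoskeleton, came next, at chr19:47631880-47631904 with 365 RPM of IP, 10.6 RPM of input and a ratio of 34.5-fold (21.8 to 58.4). Eif5b, the factor that joins the ribosomal subunits at initiation, had 339 RPM against 10.6 RPM at chr1:38073135-38073184, a ratio of 32.0-fold (20.2 to 54.2). The intervals of these 3 peaks overlap, so their order is not resolved by counting alone.

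The rest of the 12 strongest peaks had log2 values from 4.17 to 4.71. Sfswap, a regulator of splicing, had 240.5 RPM of IP and 8.22 of input (log2 4.71). Sh3bp5, which binds the kinase JNK at mitochondria, had 303 and 11.2 RPM (log2 4.65). Lrfn4, a synaptic adhesion molecule, had 242 and 8.80 RPM (log2 4.63), with only 78 and 45 RNA-seq reads for the whole gene. Naa20 is the catalytic subunit of an N-terminal acetyltransferase, and its peak had 445 and 17.6 RPM (log2 4.58). The pseudogene Gm2574 followed at 4.48 and the POU-domain transcription factor Pou6f1 at 4.39. Clcn5, an endosomal chloride and proton exchanger, had 535 RPM of IP against 24.6 RPM of input at chrX:7021249-7021398, 21.7-fold (16.0 to 30.2). Baz1b, a chromatin remodelling subunit, had 546 against 28.8 RPM at chr5:135260485-135260634, a log2 of 4.201 with an interval of 14.3- to 25.7-fold. Tubb2a, a beta tubulin, closed the group with 229 against 11.7 RPM (log2 4.17).

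All 12 had a low input, of 8.22 to 28.8 RPM against a median of 195 RPM over all covered peaks, and their IP levels of 205 to 546 RPM lay within the range of other peaks (median 194, highest 2587 RPM). The same held for the 197 peaks at 2 or above, where the median IP was 247 RPM and the median input 37.0 RPM.

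With at least 60 RPM of input (103 or more reads), 2576 peaks remained, of which 303 (11.8%) reached 1 and 749 (29.1%) lay at -1 or below. Cacybp, a component of a ubiquitin ligase complex, led them with 972 RPM of IP and 64.6 RPM of input. Its ratio was 15.0-fold (12.5 to 18.3, log2 3.89), over 2 blocks within chr1:160031287-160032580, and its RNA-seq reads were 3911 and 1652. Micu2, a gatekeeper of the mitochondrial calcium channel, was next at 565 and 67.5 RPM (log2 3.05, 8.38-fold, 6.95 to 10.2). Its RNA-seq counts were 1 read in one normal library and 912 in the other, so the libraries behind its pooled input differed widely. The lysosomal transporter Mfsd1 had a log2 of 3.02, Etl4 3.01 and Prrc1 2.91. Mark2, a kinase of microtubules and cell polarity, had 411 against 61.0 RPM (log2 2.73), and Fam198b 454 against 71.0 RPM (2.66). The vesicle tether Uso1 had 509 and 79.8 RPM (2.66), Itpripl2 2.58, and Bcl10, an adaptor of NF-kB signalling, 666 and 110.3 RPM (2.58).

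The weakest peaks carried input reads and almost no IP reads. In Tmem263, which encodes a membrane protein, the peak at chr10:84951184-84951208 had 0 IP reads and 533 RPM of input (908 reads). Set against the floor of 3 reads, 0.555 RPM, the IP was at least 959.7-fold lower than the input. The two-sided counting interval, which is wider than that floor, reached down to 779-fold. Every later bound given as "at least" for a peak with 0 IP reads uses the same floor. Their two-sided intervals likewise reach lower, as to 203-fold beside 252-fold in Igf2bp2 and 66.3-fold beside 83.5-fold in Manf. The RNA-seq counts of Tmem263 were 772 and 3356. The pseudogene Gm12261 had 0 IP reads and 518 RPM of input, at least 933-fold lower. Asf1a, a histone chaperone, had 0 against 457 RPM (at least 823-fold lower). Arfip1, which binds Arf and Rac GTPases, had 0 against 444 RPM (at least 800.1-fold lower). Ckap2, a spindle protein, had 0 against 440.2 RPM (at least 793-fold lower). These 5 peaks had between 750 and 908 input reads, so a level of IP near that of the input would have been counted many times over.

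Rbm39, a splicing cofactor, had the highest input of the 12 weakest peaks. At chr2:156003752-156003826 it had 2 IP reads (0.37 RPM) and 1185 input reads (696 RPM), a ratio 1879-fold lower in the IP (519 to 15531). The gene itself was abundant, with 10608 and 7282 RNA-seq reads. Ratios of peaks with 1 to 4 reads and bounds of peaks with 0 reads are made by different rules, so they do not rank these peaks against each other. The others with 1 to 4 IP reads were Mapk1ip1l (602 RPM of input), Naa15 (595), the auxiliary subunit of an N-terminal acetyltransferase, Bod1l (514), which protects replication forks, and Ube2e2 (560.0), a ubiquitin-conjugating enzyme. G3bp2, a stress granule protein, had 4 IP reads and 667 RPM of input. Slc6a6, the taurine transporter, had 3 reads and 576 RPM. All 12 had log2 values between -9.06 and -8.53 with a pseudocount of 1 RPM, and both the values and their order depend on the pseudocount. With 5 RPM, Rbm39 (-7.03), G3bp2 (-6.87), Mapk1ip1l (-6.82) and Naa15 (-6.80) were below Tmem263 (-6.75). Each of the 12 had at least 440.2 RPM of input, well above the median, and with 1 RPM the 10 lowest were also the 10 lowest of the peaks with 60 RPM of input.

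The low tail was a separate group rather than the end of a slope. Below 1 RPM of IP, that is 4 reads or fewer, lay 176 peaks (5.90%) of 165 genes, only 14 peaks had 1 to under 10 RPM, and 2792 (93.6%) had 10 RPM or more. The 176 peaks had a median input of 133 RPM. Of them 82 had 0 IP reads, with inputs from 9.39 to 533 RPM. Each of the 176 had at least 142.8 RPM of IP in BPA-exposed cells. In the 182 peaks at -4 or below, BPA IP was at least 100 RPM in 100% of peaks, beside 82.8% of the other 2800. A peak entered the table only with a difference between conditions, so the presence of IP reads in BPA cells at these peaks is part of how the table was made and no separate finding. Over the whole set, 2891 covered peaks (96.9%) had 100 RPM or more of IP in at least 1 of the conditions.

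Some genes with such a peak had IP signal at another covered peak. Of the 165 genes, 57 had another covered peak with at least 1 RPM of IP. Those 105 peaks had a median log2 IP/input of -0.19, close to the -0.24 of all covered peaks.

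The threshold of 6 RPM of input excluded 349 peaks of 329 genes, of which 225 genes had no covered peak. In 305 of the 349 the input had 0 reads. Their median IP was 152 RPM and the highest 728 RPM, 213 had at least 100 RPM and 75 had under 1 RPM. With 0 input reads a ratio has no upper bound. Just outside were Rock2, a kinase of actin contraction (5.87 RPM of input and 75.5 of IP), the pseudogene Gm10247 (5.28 and 239), and Vps33b (4.70 and 338), Slc25a5 (4.70 and 219) and Atp13a3 (4.70 and 181). Their ratios were 12.9-fold (6.93 to 27.0) in Rock2, 45.3-fold (23.8 to 99.2) in Gm10247, 71.9-fold (36.4 to 167) in Vps33b, 46.7-fold (23.6 to 108) in Slc25a5 and 38.6-fold (19.5 to 89.6) in Atp13a3. Those of Vps33b, Slc25a5 and Gm10247 were above the 40.9-fold of Rbl1, with overlapping intervals, so Rbl1 is highest among covered peaks only. Just inside were Rpl6l (7.04 RPM of input, 12 reads, and 6.11 RPM of IP), Actb (7.63 and 65.7), Fscn1 (7.63 and 47.6), Gm5507 (7.63 and 16.1) and Sfswap (8.22 and 240.5). Rpl6l and Gm5507 are pseudogenes, and Rpl6l, Gm10247, Gm5507 and other genes with near-identical copies have uncertain counts.

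The ratio was higher where the input was lower. From 6 to under 30 RPM the 142 peaks had a median log2 IP/input of 2.07, and 74.6% reached 1. From 30 to under 60 RPM the median was 1.17, from 60 to under 120 RPM 0.27, from 120 to under 240 RPM -0.29, and from 240 to under 480 RPM -0.45. At 480 RPM or more, the 534 peaks had a median of -0.64, with 2 peaks at 1 or above. The median IP level went from 80.8 RPM in the lowest input class to 499.7 RPM in the highest. Across peaks, Spearman's correlation of log2 IP/input was -0.396 with input and 0.495 with IP. Input and IP both enter the ratio, so both correlations are partly built in, as is the fall of the ratio over the input classes. Of all covered peaks, 96.9% had 100 RPM or more of IP in at least 1 condition. Few regions of low IP in both conditions were thus there to be ranked. The share at -1 or below was 9.86% in the lowest input class and 29.6% in the highest.

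**Figure D2:**
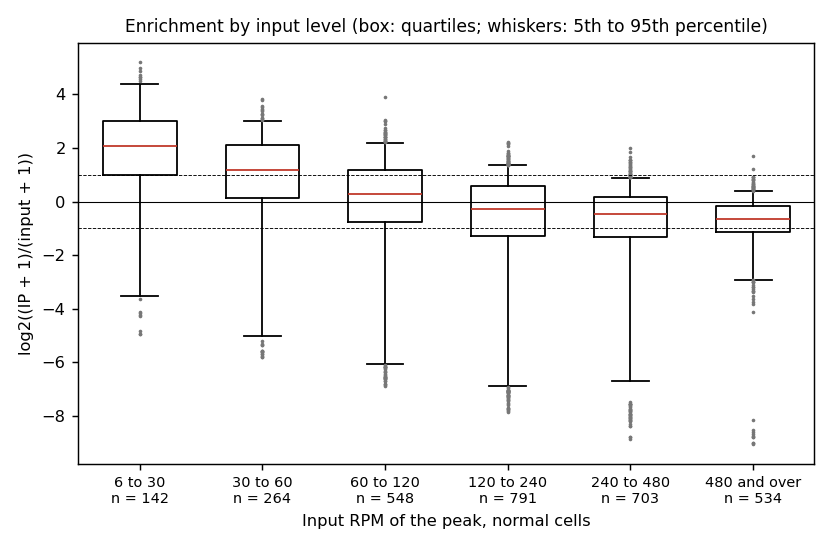
Box plots of log2 IP/input (y axis) for covered peaks of normal cells in 6 classes of input RPM (x axis), with boxes at the quartiles, red lines at the medians, whiskers at the 5th and 95th percentiles and points beyond them. The median goes from 2.07 in the class of 6 to 30 RPM to -0.64 at 480 RPM and more.

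Among the genes of the m6A machinery, no covered peak reached 1. Mettl3, the catalytic subunit of the writer, had 306 RPM of IP and 227 RPM of input (log2 0.43), and Wtap, which recruits the writer to nuclear speckles, had 433 and 323 RPM (0.42). They were the 2 covered genes of the 12 in the writer list. Of 18 eraser and reader genes, 8 had 13 covered peaks, with 0 at 1 or above and 4 at -1 or below (30.8%). The shares over all covered peaks were 18.4% and 26.5%. Most of the low peaks lay in a single gene, G3bp2. Summed by gene, the median was 0.29, beside -0.21 for all genes, and 1 of the 8 genes lay at -1 or below. Ythdc1, the nuclear YTH reader, had 419 and 221 RPM (0.92, 1.90-fold, 1.70 to 2.12). G3bp1, a stress granule protein whose binding m6A can repel, had 1108 and 702 RPM (0.66). Fmr1 was at 0.49, Hnrnpc at 0.47 and Hnrnpa2b1 at 0.10, and the interval of Hnrnpa2b1 (0.993 to 1.16) held 1. Ythdf1, a cytoplasmic YTH reader, had more input (119 RPM) than IP (60.7 RPM), a log2 of -0.96.

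Igf2bp2, a reader that stabilises its targets, had 0 IP reads and 139.7 RPM of input, at least 252-fold lower. Within G3bp2 the 6 peaks ranged from 0.32 (279 RPM of IP and 224 of input, chr5:92200205-92200304) to the peak at chr5:92202405-92202429, 4 IP reads and a log2 of -8.58. The remaining G3bp2 peaks were at 0.16, -0.03, -1.08 and -5.75.

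Map1lc3b encodes the LC3B protein that coats autophagosomes and is the gene in the study's title. Its covered peak at chr8:122323383-122323482, 100 nt long, had 246 RPM of IP and 197 RPM of input in normal cells, from 1329 and 335 reads. The log2 was 0.32 and the ratio 1.25-fold (1.11 to 1.41), inside the middle of the distribution. RNA-seq counted 416 and 350 reads for the gene. Of 40 core autophagy genes, 3 had covered peaks. The others were lower: Rb1cc1, a scaffold of the initiating kinase complex, had 59.98 RPM of IP and 157 RPM of input (-1.37), and Nbr1, a cargo receptor, had peaks at -1.63 and -1.82. Of 15 covered peaks in 11 lysosome genes, 1 was at 1 or above and 3 at -1 or below (median -0.21), with the protease Ctsd at 1.28 and the tetraspanin Cd63 at -2.24.

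For lists of genes, counts at 1 or above and at -1 or below are read beside the 18.4% and 26.5% of all covered peaks. A short list moves far with a single peak, and no list was tested. Of 84 ribosomal protein genes, 32 had 47 covered peaks, with 4 at 1 or above (8.51%), 14 at -1 or below (29.8%) and a median of -0.25. Rpl36a was lowest, with 1 IP read and 320.5 RPM of input. The 55 peaks of 29 translation factor genes had 3 at 1 or above (5.45%), 10 at -1 or below (18.2%) and a median of -0.37. Gspt1, a release factor, was lowest among them at 39.1 RPM of IP and 444 RPM of input (-3.47), while Eif5b, described above, was highest.

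In the mitochondrial lists, 13 covered peaks of 13 nuclear genes of oxidative phosphorylation had a median of -0.60. Above 0 were 2 of them, beside 43.1% of all covered peaks, among them Cox5a, a subunit of cytochrome c oxidase (194 RPM of IP and 56.9 of input, 1.75), and the ATP synthase subunit gene Atp5e was lowest (59.2 and 343 RPM, -2.52). Mitochondrially encoded mRNAs gave 4 peaks in 3 genes, with 1 at 1 or above and none at -1 or below (median -0.21). The 10 covered peaks on the mitochondrial chromosome, ribosomal RNA included, ranged from -0.76 to 1.45. Of 22 glycolysis genes, 5 had 6 peaks with a median of 0.30, from Ldha (159 and 94.5 RPM, 0.75) to Eno1 (205 and 469.6 RPM, -1.19).

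Splicing factors, which include many abundant RNA-binding proteins, had 76 covered peaks in 38 genes, with 14 at 1 or above (18.4%), 24 at -1 or below (31.6%) and a median of -0.09. Sf3b2, part of the branch-site complex, was highest (277 RPM of IP and 31.7 of input, 3.09), and Rbm39 lowest. Chromatin regulators had a median of 0.26 over 41 peaks in 24 genes, with 9 at 1 or above and 8 at -1 or below, from Baz1b to Bptf, a remodelling subunit with 1 IP read and 127 RPM of input. Transcription factors and co-regulators had 9 and 9 of 36 peaks (median -0.06), with Ets2 at 2.49 (401 and 70.4 RPM) and Yy1 at 0 IP reads and 256.5 RPM of input, at least 462-fold lower. Histones and HMG proteins, with their chaperones, had 6 and 9 of 30 peaks (median -0.41), from H2afy (317 and 32.3 RPM, 3.26) to Asf1a. H2afy had 1 and 96 RNA-seq reads, so its input too rests on unequal libraries.

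Immediate early transcription factors had 1 of 9 peaks at 1 or above and 4 at -1 or below (median -0.99), and 8 of the 9 lay below 0, beside 56.9% of all covered peaks. Hes1, a Notch target, was the exception at 397 RPM of IP and 120 RPM of input (1.72), with 0 and 355 RNA-seq reads, and Zfp36l2, an mRNA decay factor, was lowest at -2.04. Long noncoding RNAs had 8 covered peaks in 7 genes (median -0.53), of which 2 were at 1 or above and 3 at -1 or below. Snhg5 (264 and 104 RPM, 1.33) and Tug1 (161 and 66.9 RPM, 1.25) were highest. Malat1, an abundant nuclear RNA, had 548 RPM of IP and 1716 RPM of input (-1.65), and Neat1, the scaffold of paraspeckles, 353 and 492 RPM (-0.48). Gas5 had peaks at -0.29 and -0.59, Zfas1 1 peak at -1.16, and Snhg1 had 0 IP reads against 154 RPM of input (at least 278-fold lower).

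Heat shock chaperones had 2 of 38 peaks at 1 or above (5.26%), 13 at -1 or below (34.2%) and a median of -0.63, from the chaperonin subunit Cct7 (313 and 52.2 RPM, 2.56) to the mitochondrial chaperone Hspa9, with 10 IP reads and 292 RPM of input. Summed by gene, the median of the 17 genes was -0.28, beside -0.21 for all genes. Chaperones of the endoplasmic reticulum and genes of the unfolded protein response had 2 and 5 of 23 peaks (8.70% and 21.7%, median -0.64, and -0.43 by gene), from Canx (295 and 91.6 RPM, 1.68) to Manf, with 0 IP reads and 46.4 RPM of input (at least 83.5-fold lower). Proteasome genes had 5 of 18 peaks at 1 or above (27.8%) and 4 at -1 or below (22.2%), with a median of 0.20. Psma2, a core subunit, was highest (139 and 12.9 RPM, 3.33) and Psmd2, a regulatory subunit, lowest (79.2 and 261 RPM, -1.71). Ubiquitin ligases and ubiquitin genes had 7 and 14 of 44 peaks (median -0.03), with the deubiquitinase Usp34 highest (424 and 38.1 RPM, 3.44).

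**Figure D3:**
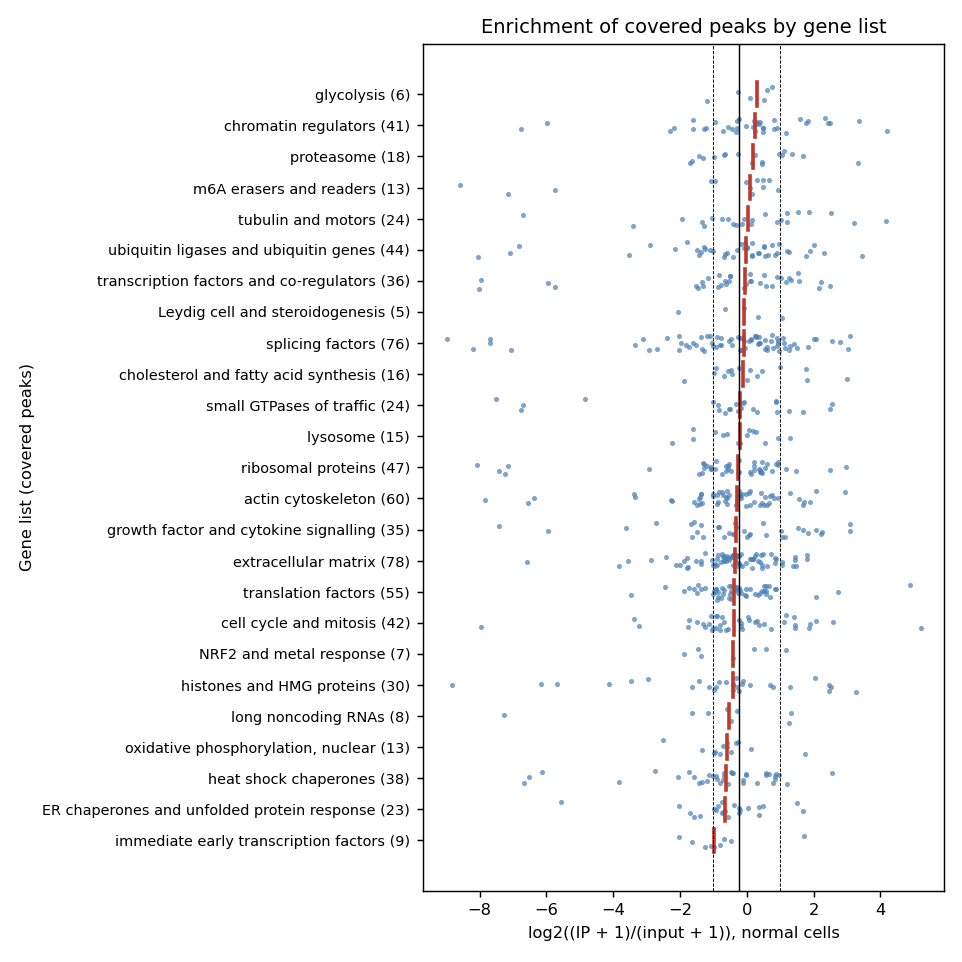
Each row is a gene list with at least 5 covered peaks, each point a peak at its log2 IP/input in normal cells (x axis), the red bar the list's median and the solid line the median of all covered peaks. The list medians lie between -0.99 and 0.30, while the peaks of most lists spread over a far wider range.

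Peaks outnumbered genes in the matrix and cytoskeletal lists, as over all covered peaks (2982 in 2070 genes). The 78 peaks of 28 extracellular matrix genes had 8 at 1 or above (10.3%), 17 at -1 or below (21.8%) and a median of -0.37. Col6a2, a beaded filament collagen chain, was highest (419 and 119 RPM, 1.81), and the collagen crosslinking enzyme Lox lowest, with 1 IP read and 114 RPM of input. Actin cytoskeleton genes had 7 and 17 of 60 peaks (median -0.31), with the low-input Actb peak highest and Tagln2, an actin-binding protein with 1 IP read and 272 RPM of input, lowest. Tubulins and motors had 8 of 24 peaks at 1 or above (33.3%), 6 at -1 or below (25%) and a median of 0.03. Kif5b, a kinesin heavy chain with 2 IP reads and 140.3 RPM of input, was lowest. Summed by gene, the median of the 15 genes was -0.33, beside -0.21 for all genes. By gene, 3 lay at 1 or above and 5 at -1 or below.

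The signalling, cell cycle and small GTPase lists had peaks on both sides, as most lists did. Growth factor and cytokine signalling genes had 11 of 35 peaks at 1 or above (31.4%) and 10 at -1 or below (28.6%), with a median of -0.34. Lrp1, an endocytic and signalling receptor, was highest (211 and 24.1 RPM, 3.08). Fgfr1, a fibroblast growth factor receptor, had 0 IP reads and 170.2 RPM of input, at least 307-fold lower. Cell cycle and mitosis genes had 10 and 12 of 42 peaks (23.8% and 28.6%, median -0.39). They ran from Rbl1 to the spindle checkpoint gene Mad2l1, with 0 IP reads and 249 RPM of input (at least 449-fold lower). Small GTPases of traffic had 4 and 5 of 24 peaks (16.7% and 20.8%, median -0.21). Rab35 of endosomal recycling was highest (101 and 16.4 RPM, 2.55) and Rab6a of the Golgi lowest, at 0 IP reads and 180.2 RPM of input.

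Of 22 genes of Leydig cells and steroidogenesis, 5 had 1 covered peak each. The glycolysis list likewise had 5 of 22 genes covered. Lists differed widely in this, from 3 of 40 core autophagy genes to 29 of 46 translation factor genes. Pdgfra, a receptor of platelet-derived growth factor, had 223 RPM of IP and 108 RPM of input (1.04, 2.07-fold, 1.77 to 2.43), with 2660 and 2960 RNA-seq reads. Stard4, a cholesterol carrier, had 356 and 282 RPM (0.33), and Por, the electron donor of the steroidogenic P450 enzymes, 65.3 and 68.7 RPM (-0.07). Nr2f2, a nuclear receptor of Leydig progenitors, had 166 and 261 RPM (-0.65), and the aldo-keto reductase Akr1b3 120.3 and 509 RPM (-2.07). Cholesterol and fatty acid synthesis genes had 4 of 16 peaks at 1 or above (25%) and 1 at -1 or below (6.25%), with a median of -0.12. The desaturase Fads1 (195 and 23.5 RPM, 3.003) was highest and Idi1, an enzyme of isoprenoid synthesis (99.8 and 369 RPM, -1.88), lowest. Genes of the NRF2 and metal response had 1 and 3 of 7 peaks (median -0.40), from G6pdx (92.0 and 40.5 RPM, 1.16) to the superoxide dismutase Sod1 (69.2 and 256 RPM, -1.87).

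Peaks of the same gene often differed, though no comparison with peaks of different genes was computed. Of the 2070 genes, 1469 had 1 covered peak, 403 had 2, 134 had 3, 39 had 4 and 25 had 5 or more. In the 601 genes with several, the median distance between the highest and the lowest log2 was 1.32, and 68 genes (11.3%) held both a peak at 1 or above and a peak at -1 or below. Neighbouring peaks are not independent, since 50 covered peaks in 25 sets shared all 4 RPM values, 24 of these sets within a gene.

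With a pseudocount of 1 RPM the widest gene was Uso1, and with 5 RPM it spanned 7.87 and Prkar1a 7.94, so the order of these is not settled. From 5' to 3' its 6 peaks had log2 values of -7.57 (0 IP reads, 188 RPM of input), 0.37, -1.26, -0.25, -4.10 and 2.66. Prkar1a, a regulatory subunit of protein kinase A, went through 1.96, 0.14, -8.16 and -1.23. Rbm28, a nucleolar protein, had -8.16, 0.00 and 1.60, with 498 RPM of input and 4 IP reads at the first. In Ahnak, a giant scaffold protein, 9 peaks ran from 2.04 to -7.11, and in Huwe1, a ubiquitin ligase, 4 ran from 1.91 to -7.08. The narrowest genes with 3 or more peaks were Rpl18 (0.38 to 0.44), Hnrnpk (0.13 to 0.26), Pfdn2 (0.46 to 0.72), Cip2a (-1.44 to -1.08) and Tpm3-rs7 (-0.49 to -0.10). Of the 3 peaks of Rpl18, 2 carry the same values.

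**Figure D4:**
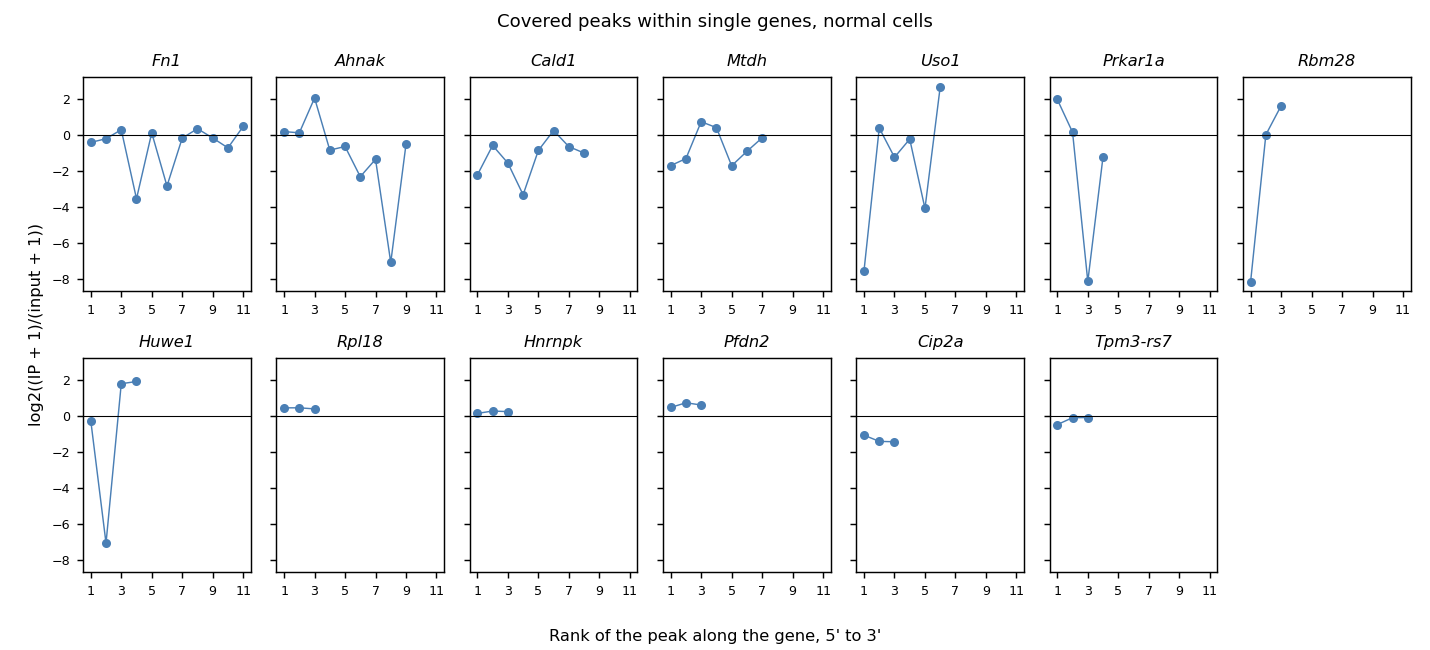
Log2 IP/input (y axis) of every covered peak of the genes with the widest and narrowest spread and of the 4 genes with most peaks, in 5' to 3' order of rank (x axis). Uso1 and Prkar1a cross from above 1 to below -7, while the 3 peaks of Rpl18 and of Hnrnpk stay within 0.13 to 0.44.

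The genes with most covered peaks were Fn1 with 11, Ahnak with 9, Cald1 with 8 and Mtdh with 7, chosen after their values were seen. In Fn1, the matrix glycoprotein fibronectin, values ran from -3.56 (16.7 RPM of IP and 208 RPM of input) to 0.46 (523 and 381 RPM, the 3'-most peak), with none at 1 or above. Cald1, an actin-binding regulator of contraction, had 1 of 8 peaks above 0 (0.23). Mtdh, a protein of the endoplasmic reticulum and nucleus, ranged from -1.73 to 0.72.

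No gene with 3 or more covered peaks had all of them at 1 or above, among 198 such genes. All peaks were at -1 or below in 6 of them. These were Pum3 (-1.68 to -1.17), Mthfd2 (-1.62 to -1.20), Cip2a, Vps26a (-6.64 to -1.73), Bzw1 (-6.63 to -1.17) and Pdzd8 (-2.99 to -1.01), named after their values were seen. All peaks lay above 0 in 14 genes and below 0 in 45. The first set held Arhgap29 (0.82 to 2.03) and Cltc (0.28 to 2.18), the clathrin heavy chain, also named after their values were seen. Of the 403 genes with 2 peaks, both were at 1 or above in 18 and at -1 or below in 48, and 26 had 1 on each side. Of all covered peaks, 18.4% were at 1 or above and 26.5% at -1 or below. No expected counts were computed, so the 0 of 198 is not read as a trait of genes with several peaks. Some of the genes counted hold peaks of the same value, as Pum3 (-1.17), Ccnf (2.90 in both) and Asf1b (2.46 in both).

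Position along the gene did not order the values. In 586 genes the 3'-most covered peak was higher than the 5'-most in 293 and lower in 289. The median difference was 0.0046, with medians of -0.31 at the 3' side and -0.29 at the 5' side. For 401 genes whose outer peaks lay at least 1000 bp apart on the genome, the 3'-most was higher in 204 (median difference 0.03). Exons, introns and untranslated regions were not analysed here, so m6A near stop codons could not be examined.

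The RNA level of the gene was weakly related to the ratio. Over 1953 genes in the count table, Spearman's correlation of the gene's log2 IP/input, from its summed RPM, with mean CPM was -0.0784 (-0.0870 and -0.0641 with each normal library). The summed input had a correlation of 0.386 with mean CPM and the summed IP 0.325. These are across genes, which are not independent replicates, and the input and the RNA-seq counts were taken to come from the same libraries. The 343 genes at 1 or above had median levels of 78.6 and 83.0 CPM in the 2 libraries, the 463 genes at -1 or below 111 and 110.1 CPM, and the 1147 genes between them 139 and 136 CPM. Both ends of this ranking by gene thus had lower median RNA levels than the middle. Genes differed in the number of covered peaks that were summed, and the effect of this on the pattern was not tested.

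Values by gene type overlapped widely. Protein-coding genes held 2632 covered peaks (88.3%), with a median log2 IP/input of -0.23, 487 at 1 or above and 715 at -1 or below. Pseudogenes held 168 peaks with a median of -0.43, of which 30 were at 1 or above and 44 at -1 or below. Reads from pseudogenes and their parent genes may not be told apart. Covered peaks were 25 to 325 nt long (median 75), and the correlation of log2 IP/input with length was 0.0953 (Spearman). The 584 peaks of several blocks had a median of -0.16 and the 2398 of 1 block -0.26.

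In BPA-exposed cells, 2126 peaks of 1566 genes had 6 RPM of input, of which 34.6% were at 1 or above and 32.7% at -1 or below. The BPA input was shallower: 1 read was 1.22 RPM, beside 0.587 RPM in normal cells, so 6 RPM rests on fewer reads. The median input over all peaks of the table was 13.4 RPM in BPA cells and 167 RPM in normal cells. For the 1982 peaks with that input in both conditions, the normal shares were 16.9% and 25.7% and the BPA shares 34% and 32.4%. The order of the peaks was largely turned round, with a Spearman correlation of -0.496 between the conditions. The authors' table holds peaks that differ between the conditions, so this correlation describes that table and not m6A peaks at large. Of 334 peaks at 1 or above in normal cells, 83 were at 1 or above in BPA cells and 194 (58.1%) at -1 or below. Of 509 at -1 or below in normal cells, 297 (58.3%) were at 1 or above in BPA cells and 1 at -1 or below.

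**Figure D5:**
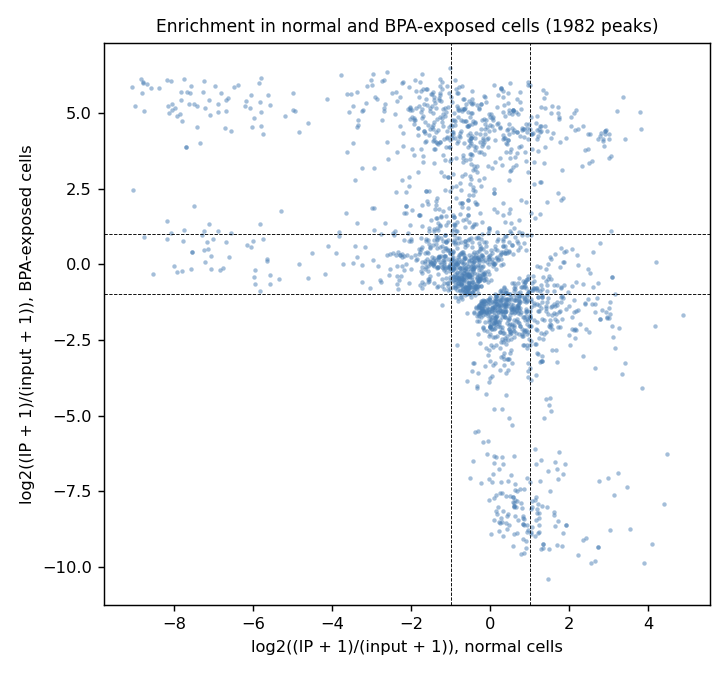
Each point is a peak with at least 6 RPM of input in both conditions, at its log2 IP/input in normal cells (x axis) and BPA-exposed cells (y axis). Of the 509 peaks at -1 or below in normal cells, 297 sit at 1 or above in BPA cells and 1 at -1 or below.

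Cacybp, the strongest of the normal peaks with deep input, had 1.54 RPM of IP and 2382 RPM of input in BPA cells (log2 -9.87). Dek, a chromatin protein, had 883 and 322 RPM in normal cells (1.45) and 0.26 and 1706 RPM in BPA cells (-10.40). Rlim, a ubiquitin ligase, Uso1 and Mfsd1 completed the 5 peaks most below their normal value among those with 60 RPM of input in both, with normal values of 2.55, 2.66 and 3.02 and BPA values of -9.87, -9.79 and -8.79. In the other direction Rbm28 went from -8.16 to 1.42, Bod1l from -8.76 to 0.91, Abce1 from -7.49 to 1.92, Rpl36a from -8.08 to 1.03 and Gm12261 from -9.02 to 2.44. Among these 1271 peaks, 311 were higher by 1 or more in BPA cells, 616 lower by 1 or more, and 344 in between. Map1lc3b had 200.6 RPM of IP in BPA cells, near its normal level, and 4.89 RPM of input, under the threshold, so its BPA ratio is not ranked here.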

How the data were processed

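RNA of normal and BPA-exposed TM3 cells was fragmented and m6A fragments were enriched with an antibody kit, per the labels' protocols. The peak table was deposited with RPM values, 1 pooled value of 2 libraries for the IP and for the input of each condition. The authors also deposited a log2 fold change, a p-value and a false discovery rate per peak, of which only the highest false discovery rate is quoted. A table of raw gene counts was deposited for 4 libraries. No assay is named in its column headers, which were read as RNA-seq since the submitters' processing notes list a gene counter and RNA-seq is named as input in the design text. The tools, per the submitters' processing notes, were DESeq2 1.38.3, featureCounts 2.0.1, HISAT2 2.2.1 and fastp 0.20.1. The same notes name the builds GRCm39 and GRCh38 without a role. Neither the peak caller nor the RPM denominator is given in the sources used here. Over all peaks the RPM summed to 826089 in the normal IP and 884773 in the normal input, so the scale is close to a share of reads in the peaks, and the recovered totals are not sequencing depths. All values were whole reads within 0.1 read. Unused columns of single samples numbered 0.

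The log2 ratio used a pseudocount of 1 RPM and a minimum input of 6 RPM. Coordinates are 1-based and were read as GRCm39, the mouse build of the notes. Only 11.2% of 3172 peaks fell within their gene in a GRCm38 table. Symbols were found for 3261 of 3331 peaks, and biotypes were matched by symbol to RefSeq. A call was a log2 of at least 1 or at most -1. Named were the 12 highest and 12 lowest peaks, the 10 highest and 10 lowest with 60 RPM of input, the highest and lowest peak of each list with 5 or more peaks, the 5 widest and 5 narrowest genes with 3 or more peaks, Map1lc3b and the m6A genes, the 5 peaks on each side of the threshold, and the 5 largest and 5 smallest differences from BPA cells. Some peaks that this rule names are not reported here. The members and the 28 gene lists were chosen with earlier results of these data known. Alternatives changed the pseudocount, minimum input, scaling, unit of counting and libraries. Python 3.11.15 with numpy 2.4.6, pandas 2.3.3, scipy 1.17.1 and matplotlib 3.10.9 was used, and the scripts were tested on simulated data.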

Additional observations from a re-analysis of the deposited data

How the results depend on the processing

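No paired analysis was possible because the IP and input were deposited as 1 pooled value per condition, so no ratio has replicates and no test was run. The 549 peaks at 1 or above became 443 to 821 and the 790 at -1 or below 728 to 797 over the alternatives that count peaks. Counted as 1 value per gene, 369 of 2070 genes (17.8%) lay at 1 or above and 481 (23.2%) at -1 or below. With no minimum input the median log2 IP/input was -0.0370 instead of -0.24, and the correlation between normal and BPA cells was -0.357 instead of -0.496. With a minimum of 30 RPM that correlation was -0.635. In each of these the peaks or genes that enter differ by construction. Scaled to the sum over the peaks, 611 peaks were at 1 or above and 728 at -1 or below. Without either normal RNA-seq library, the correlation with RNA level ranged from -0.0870 to -0.0641. A single peak for each set with the same 4 RPM values, an alternative chosen after seeing the data, gave 543 and 785. Of 34 such values, 30 stayed within the limits set for a change. Those limits were wide for counts, since 821 peaks and 369 genes in place of 549 peaks both fell within them. List medians moved in 21 of 125 cases and named peaks in 34 of 326, by up to 1.00 (pseudocount of 0.5 RPM) and 2.31 (5 RPM) on the log2 scale. Medians of 5 lists, all near 0, changed sign: with no minimum input splicing factors (0.02), transcription factors (0.09), ubiquitin genes (0.02) and cholesterol and fatty acid synthesis (0.06), and tubulin and motors with 12 and 30 RPM (-0.07 and -0.13). Depth limits the strongest peaks, which rest on as few as 14 input reads, and the weakest, which lie at or near the floor of 3 IP reads.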
